A study of Mus musculus with 6 samples.

Results

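The glutathione transferases examined here are 10 protein-coding mouse genes, of 21887 protein-coding genes on the main chromosomes of mm10. They are Gstp1 and Gstp2 of the pi class, Gstm1 and Gstm5 of the mu class, Gsta4, Gstt1, Gsto1 and Gstz1 of the alpha, theta, omega and zeta classes, the mitochondrial and peroxisomal Gstk1, and the membrane-bound Mgst1. The set was defined from results of these same libraries: Gstp1 was chosen by its peaks, which both neomycin libraries had and both untreated libraries lacked, and the others as its relatives. Differences between the groups at these genes are therefore given as a description, with no test. Peaks were counted over each gene with 1 kb on either side, and again within 1 kb of each start listed by RefSeq.

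H3K4me3 is a histone mark laid down around the starts of active and poised genes. It was profiled by ChIP-seq in Lgr5+ progenitor cells, supporting cells of the cochlea that can give rise to hair cells, sorted by GFP from cultured cochleae of Lgr5-EGFP-creERT2 mice (C57BL/6, either sex, postnatal day 0 to 3). One group was exposed to neomycin, an aminoglycoside antibiotic that kills hair cells, for 12 h, and the other was left untreated, with 2 H3K4me3 libraries and 1 input library each. All animals carry the reporter allele, which marks cells in which the Lgr5 promoter is active, and cochleae of both groups were cultured with growth factors before the sort. The number of animals per library is not given, nor whether replicate libraries trace back to different cultures. The spread between replicates may therefore be technical.

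Glutathione transferases join the thiol of glutathione to electrophilic compounds, which are then exported from the cell. They take up products of lipid peroxidation and many drugs, and several of them also reduce peroxides. Many of their genes are induced through the transcription factor Nrf2, which binds antioxidant response elements as a dimer with a small Maf protein. In the inner ear, glutathione is part of the defence against the reactive oxygen species that aminoglycosides evoke.

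The peak lists held 14203 and 11545 peaks in neomycin replicates 1 and 2 and 15938 and 10520 in untreated replicates 1 and 2. They carry no read totals, so the depth is unknown. The pileup, the number of fragments stacked at a summit, cannot be compared between libraries, and the caller's q, the false discovery estimate of a peak, was used by its percentile within a list, where a higher percentile is a stronger peak. The shortest peaks were 48 and 110 bp in the neomycin libraries, against 187 and 234 bp in the untreated libraries, and the medians were 70 and 142 bp against 310.5 and 340 bp. Peak lengths of the 2 groups therefore do not start from the same floor. By its labels every library is H3K4me3 and made with the same antibody, while the names under which the untreated lists were deposited read H3K4me2. All 10 markers of supporting and progenitor cells, Lgr5 and Sox2 among them, had a peak in every library. Of 6 mesenchyme and fibrocyte markers, 0 and 1 had one with neomycin and 3 and 4 without, with Coch, Twist1 and Prrx2 marked in the untreated libraries alone. Of 6 hair cell markers the counts were 3 and 1 against 4 and 1, of 3 glial markers 2 and 1 against 2 and 1, of 3 neuronal markers 1 and 1 against 2 and 1, and of 3 macrophage markers 1 and 0 against 0 and 0. Atoh1, of the hair cell list, was also marked in the untreated libraries alone. Of all protein-coding genes, 39.3% and 37.6% had a peak with neomycin and 51.0% and 39.7% without. Another 2 shares of all genes were 4.50% marked in the untreated libraries alone and 19.8% marked in all 4. The part of other cells in the results was not tested.

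The start regions below show what the peaks at the main genes covered. Each runs from 250 bases before the start to 50 after it, read 5′ to 3′ on the strand of the gene, from RefSeq on GRCm38.p6. Gstp1 lies at chr19:4037863-4038162 on the minus strand, and its capitals mark the 57 bases under a peak in both neomycin libraries. Gstp2 lies at chr19:4042172-4042471 on the minus strand, and its capitals mark bases identical to Gstp1 in a global alignment. Gstm5 at chr3:107895604-107895903 and Mgst1 at chr6:138140277-138140576, both on the plus strand, have in capitals the core of an antioxidant response element, TGACNNNGC, which in Mgst1 is on the opposite strand. Gstz1 lies at chr12:87146915-87147214 on the plus strand, and its capitals mark the 33 bases under the peak of untreated replicate 1.
Gstp1: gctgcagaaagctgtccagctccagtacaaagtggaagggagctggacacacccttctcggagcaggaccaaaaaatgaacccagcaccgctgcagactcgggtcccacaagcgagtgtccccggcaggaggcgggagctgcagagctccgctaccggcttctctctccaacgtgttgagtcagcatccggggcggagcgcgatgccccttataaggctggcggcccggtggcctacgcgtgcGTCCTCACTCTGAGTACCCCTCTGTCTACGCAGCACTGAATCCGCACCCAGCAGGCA
Gstp2: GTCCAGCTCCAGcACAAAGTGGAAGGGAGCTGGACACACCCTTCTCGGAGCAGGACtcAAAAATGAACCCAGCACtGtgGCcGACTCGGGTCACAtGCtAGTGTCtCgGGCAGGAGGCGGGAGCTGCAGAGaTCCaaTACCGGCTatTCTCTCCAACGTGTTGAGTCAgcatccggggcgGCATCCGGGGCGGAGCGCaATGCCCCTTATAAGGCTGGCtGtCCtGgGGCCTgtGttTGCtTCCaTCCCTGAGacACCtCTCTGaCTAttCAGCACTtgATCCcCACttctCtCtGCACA
Gstm5: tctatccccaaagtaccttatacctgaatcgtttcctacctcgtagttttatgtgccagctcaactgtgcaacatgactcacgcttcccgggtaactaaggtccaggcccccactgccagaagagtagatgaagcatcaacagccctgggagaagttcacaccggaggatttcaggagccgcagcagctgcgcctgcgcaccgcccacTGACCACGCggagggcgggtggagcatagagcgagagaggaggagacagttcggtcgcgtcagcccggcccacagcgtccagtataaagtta
Mgst1: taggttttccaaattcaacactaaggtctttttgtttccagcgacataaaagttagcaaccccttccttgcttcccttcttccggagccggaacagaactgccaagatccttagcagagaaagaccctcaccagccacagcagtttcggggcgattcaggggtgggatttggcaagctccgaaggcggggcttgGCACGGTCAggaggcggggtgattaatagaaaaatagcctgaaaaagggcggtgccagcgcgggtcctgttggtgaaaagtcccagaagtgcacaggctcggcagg
Gstz1: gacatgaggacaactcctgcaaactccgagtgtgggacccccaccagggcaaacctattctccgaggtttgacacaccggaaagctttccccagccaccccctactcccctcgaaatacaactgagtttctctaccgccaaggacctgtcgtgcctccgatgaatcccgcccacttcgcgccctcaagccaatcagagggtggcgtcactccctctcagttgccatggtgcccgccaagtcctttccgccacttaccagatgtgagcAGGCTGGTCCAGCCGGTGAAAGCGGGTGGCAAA

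Of the 10 genes, 7 had a peak in at least 1 library. No library had a peak at the other 3, Gstp2, Gstm1 and Gstk1, and 0 had a peak in all 4 libraries. Over all protein-coding genes, 40.5% had no peak in any library and 19.8% had one in all 4. With neomycin, 3 and 4 of the 10 genes had a peak in replicates 1 and 2, and in the untreated cells 3 and 2 did. Over all genes the shares were 39.3% and 37.6% with neomycin and 51.0% and 39.7% without. Within 1 kb of a start the counts were again 3 and 4 with neomycin and 3 and 2 without, beside 34.8%, 33.6%, 47.0% and 36.3% of all genes in the same order of libraries.

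Gstp1 and Gstm5 were marked in each library with neomycin and in no untreated one, and Gstz1 had the opposite pattern. Over all genes, 1.56% had the pattern of Gstp1 and 4.50% that of Gstz1. With start windows the same 3 genes had these patterns, beside 1.40% and 4.66% of all genes, and 16.6% of all genes were then marked in all 4 libraries. Since Gstp1 was picked for its pattern, nothing is read from these counts. The plot of summed peak length by gene and library shows the 4 values of each gene.

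**Figure D1:**
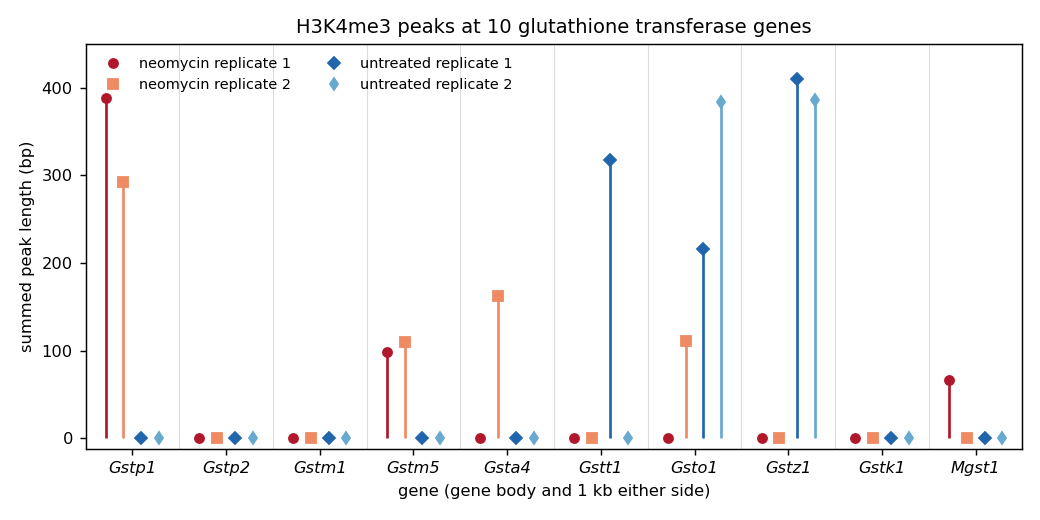
Summed length in bp of the called peaks that touch each gene or 1 kb either side, for the 2 neomycin libraries (red and orange) and the 2 untreated libraries (dark and light blue); a symbol at 0 means no called peak. Gstp1 has 388 and 293 bp with neomycin and 0 in both untreated libraries, Gstz1 has 0 in both neomycin libraries and 410 and 386 bp in the untreated libraries, and Gsto1 is marked in both groups.

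Gstp1, which conjugates a wide range of electrophiles, is on chromosome 19 from 4035411 to 4037912. Neomycin replicate 1 had 2 peaks there, of 327 and 61 bp with summit pileups of 9 and 8, and neomycin replicate 2 had 1 peak of 293 bp with a pileup of 14. The fold enrichment of the main peak over the background of the caller was 7.38 in replicate 1 and 8.18 in replicate 2, as the authors' lists give it. Neither untreated library had a peak, and their nearest ones lay 22.7 and 22.8 kb from the gene. Over the 341 genes marked with neomycin alone, the median gap to the nearer untreated peak was 16.7 kb. It was larger than that of Gstp1 at 142 of them. The groups did not overlap, as the choice of this gene fixes. The longer peak of replicate 1 began 36 bases before the start and ended 290 bases after it, and the peak of replicate 2 ran from 7 bases before to 285 after. The whole peak of replicate 2, 293 bases, lay within that of replicate 1. The short peak of replicate 1 lay 155 to 95 bases before the start.

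The main peak of Gstp1 stood at percentile 86.5 of the caller's q in neomycin replicate 1, and at percentile 92.4 in replicate 2. Many peaks were tied at these values, 954 in replicate 1 and 479 in replicate 2, itself included. The lists differ in their values of q, with median −log10 q of 4.25 and 5.77 with neomycin and 9.08 and 7.35 without. The −log10 q of the main Gstp1 peak was 6.68 in neomycin replicate 1 and 8.57 in replicate 2. By length it stood at percentiles 99.8 and 92.9. The short peak of replicate 1 stood at percentile 74.3 by q and 40.8 by length. Of the 341 genes with peaks in both neomycin libraries alone, 2 had a longer summed length than Gstp1 in replicate 1 and 46 in replicate 2, where the medians of those genes were 90 and 149 bp. A higher q percentile at the best peak was found in 17 of them in replicate 1 and 24 in replicate 2. Gstp1 was chosen by these same peaks, so nothing is read from its ranks. The main peak of Gstp1, longer than the list medians of 70 and 142 bp, also covered the start itself. So did 2.89% and 3.51% of the peaks near genes with a single listed start in neomycin replicates 1 and 2. In the untreated libraries, where peaks were longer, the shares were 14.1% and 18.8%. A longer peak covers a start more easily. The 67 bp peak of Mgst1 in neomycin replicate 1 also covered a listed start.

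**Figure D2:**
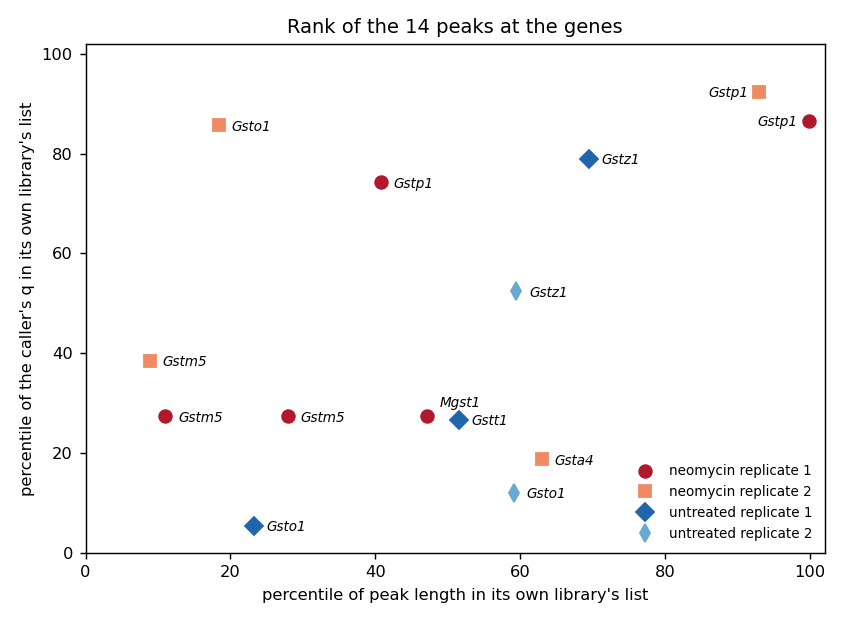
Each symbol is 1 of the 14 peaks at the genes, placed by the percentile of its length (horizontal) and of the caller's q (vertical) within its own library's list. The main Gstp1 peaks are at the upper right, at length percentiles 99.8 and 92.9 and q percentiles 86.5 and 92.4, while the Gstm5 and Mgst1 peaks lie below percentile 40 of q.

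Gstp2, the neighbouring pi class copy, had no peak in any library. It lies 2.38 kb upstream of Gstp1, on chromosome 19 from 4040288 to 4042221. Its nearest peaks in the neomycin libraries were those of Gstp1, at 2.22 and 2.37 kb, and in the untreated libraries the distances were 27.6 and 27.6 kb. In the sequences shown above, the start regions of the pair were identical at 246 bases, or 77.1% of the aligned columns, with a longest identical run of 43 bases. The other pairs of genes with a listed start reached at most 53.6%. How reads that match both copies were placed is not given in the sources used here, so the levels of Gstp1 and Gstp2 cannot be fully told apart. The Gstp2 gap was the smallest one outside the 1 kb limit. Gstp3, the next pi class gene, 19.6 kb from Gstp1, also had no peak in any library.

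Around Gstp1 the untreated libraries did have peaks at other genes. Ndufv1, a subunit of respiratory complex I 22.7 kb away, had 0 and 144 bp with neomycin and 280 and 267 bp without. Nudt8, 33.3 kb away, had 0 and 324 bp with neomycin and 376 and 0 bp without. Of 8 other genes within 50 kb of the start of Gstp1, 5 had no peak in any library and 0 had one in all 4. Neomycin replicate 1 had peaks at Gstp1 and nowhere else in this interval.

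**Figure D3:**
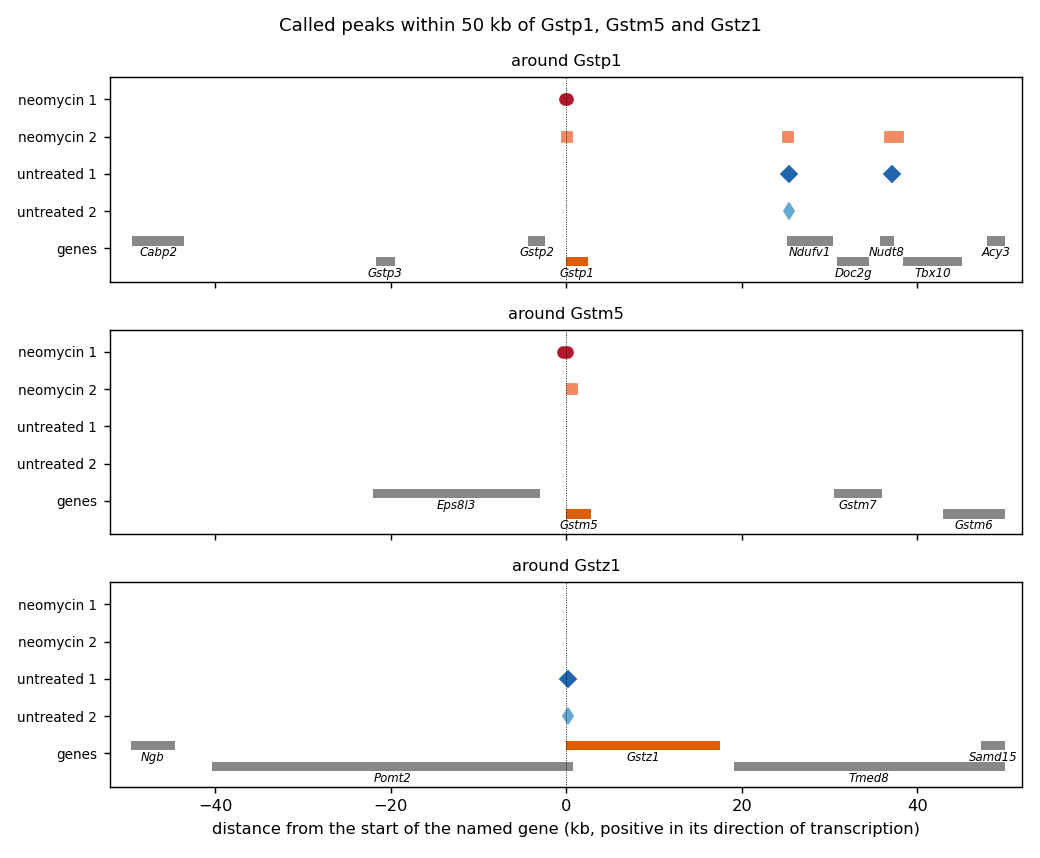
Called peaks of each library (symbols) and protein-coding genes (bars, the named gene in orange) within 50 kb of the starts of Gstp1, Gstm5 and Gstz1, by distance in kb in the direction of transcription. At Gstp1 and Gstm5 only the neomycin rows have symbols at 0, at Gstz1 only the untreated rows do, and around Gstm5 no library has any other peak.

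Gstm5, a mu class transferase on chromosome 3 from 107895854 to 107898685, had short and weak peaks with neomycin alone. Neomycin replicate 1 had 2 peaks of 51 and 48 bp, each with a pileup of 6, neomycin replicate 2 had 1 of 110 bp with a pileup of 10, and the untreated libraries had 0. In the untreated libraries the nearest peaks were 135 and 146 kb off. The peaks of replicate 1 lay 361 to 311 bases before the start and 31 to 78 bases after it, and the peak of replicate 2 lay 568 to 677 bases after it. No base was thus covered in both neomycin libraries, and the peak lengths were at or near the shortest in each list. Their q stood at percentiles 27.3 and 38.5. Gstm5 no longer had this pattern with lists of equal length or when a peak had to overlap the window by at least 100 bp, whereas Gstp1 kept it under both. The overlap rule turns on length alone here. Peaks of 51 and 48 bp cannot meet it, and the main Gstp1 peaks of 327 and 293 bp cannot fail it. It therefore does not rank these patterns.

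Gstm1, the other mu class gene of the set, on chromosome 3 from 108012250 to 108017973, had no peak in any library, and the nearest ones lay 116 and 26.7 kb away with neomycin and 68.3 and 26.7 kb away without.

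Gsta4, which clears 4-hydroxynonenal and other aldehydes of lipid peroxidation, had 0 and 162 bp with neomycin and 0 and 0 bp without. Its single peak, with a pileup of 9 and a q at percentile 18.8, lay 306 bp inside the lower coordinate of the gene, on chromosome 9 from 78191966 to 78209349. Mgst1, a transferase of the endoplasmic reticulum and outer mitochondrial membrane that also reduces lipid hydroperoxides, had 67 and 0 bp with neomycin and 0 and 0 bp without. The gene lies on chromosome 6 from 138140527 to 138156755, and its peak, with a pileup of 6 and a q at percentile 27.3, ran from 64 bases before the start to 2 after it. The 2 neomycin libraries differed at both genes, so neither separated the groups.

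Gsto1, which reduces disulphides and dehydroascorbate, was the one gene of the 10 with peaks in 3 libraries. It lies on chromosome 19 from 47854973 to 47864790. It had 0 and 111 bp in the neomycin libraries and 216 and 384 bp in the untreated libraries. The peaks lay in different places: that of neomycin replicate 2 was 414 to 304 bases before the start, and those of the untreated libraries began 112 bases after it and ended 327 and 495 bases after it. The untreated peaks shared 216 bases with each other, while the neomycin peak shared 0 bases with either. Over all genes with a single listed start, 24.4% and 26.2% of summits near the start were upstream of it with neomycin and 22.7% and 20.1% without. The neomycin peak stood at percentile 85.7 of its list by q and the untreated ones at percentiles 5.44 and 12.1.

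Gstz1, maleylacetoacetate isomerase, which acts in tyrosine breakdown, was marked in the untreated libraries alone. The gene lies on chromosome 12 from 87147161 to 87164723. With neomycin it had 0 and 0 bp, and without it 410 and 386 bp, with pileups of 18 and 11. The 2 untreated peaks shared 374 bases and had their summits at the same base, 275 bases after the start. They stood at percentiles 78.9 and 52.4 of their lists by q, and the nearest neomycin peaks lay 34.9 and 35.1 kb from the gene. The same peaks lie in Pomt2, a protein O-mannosyltransferase gene on the opposite strand that overlaps Gstz1 by 808 bp and starts 737 bp from it, so the mark cannot be assigned to Gstz1 alone. Replicate peaks shared at least 1 base in 54.3% of the 341 genes marked with neomycin alone and in 91.9% of the 986 genes marked in the untreated libraries alone. The median summed lengths in replicates 1 and 2 were 90 and 149 bp at the former genes and 418 and 363 bp at the latter. Longer peaks share a base more easily, so these shares do not compare how well the patterns of the 2 groups repeat.

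Gstt1, a theta class enzyme that acts on small halogenated compounds, had 0 and 0 bp of peaks with neomycin and 318 and 0 bp without. On chromosome 10 the gene spans 75783813 to 75798584. The peak of untreated replicate 1 lay 959 to 642 bases before the listed start and reached 106 bp beyond the upper coordinate of the gene. Its pileup was 11, its q stood at percentile 26.6, and the nearest neomycin peaks were 10.9 and 10.8 kb away. Gstk1, on chromosome 6 from 42245935 to 42250441, had no peak in any library, with the nearest at 11.6 and 14.7 kb with neomycin and at 14.7 and 14.7 kb without. The map of peak positions sets these genes side by side.

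**Figure D4:**
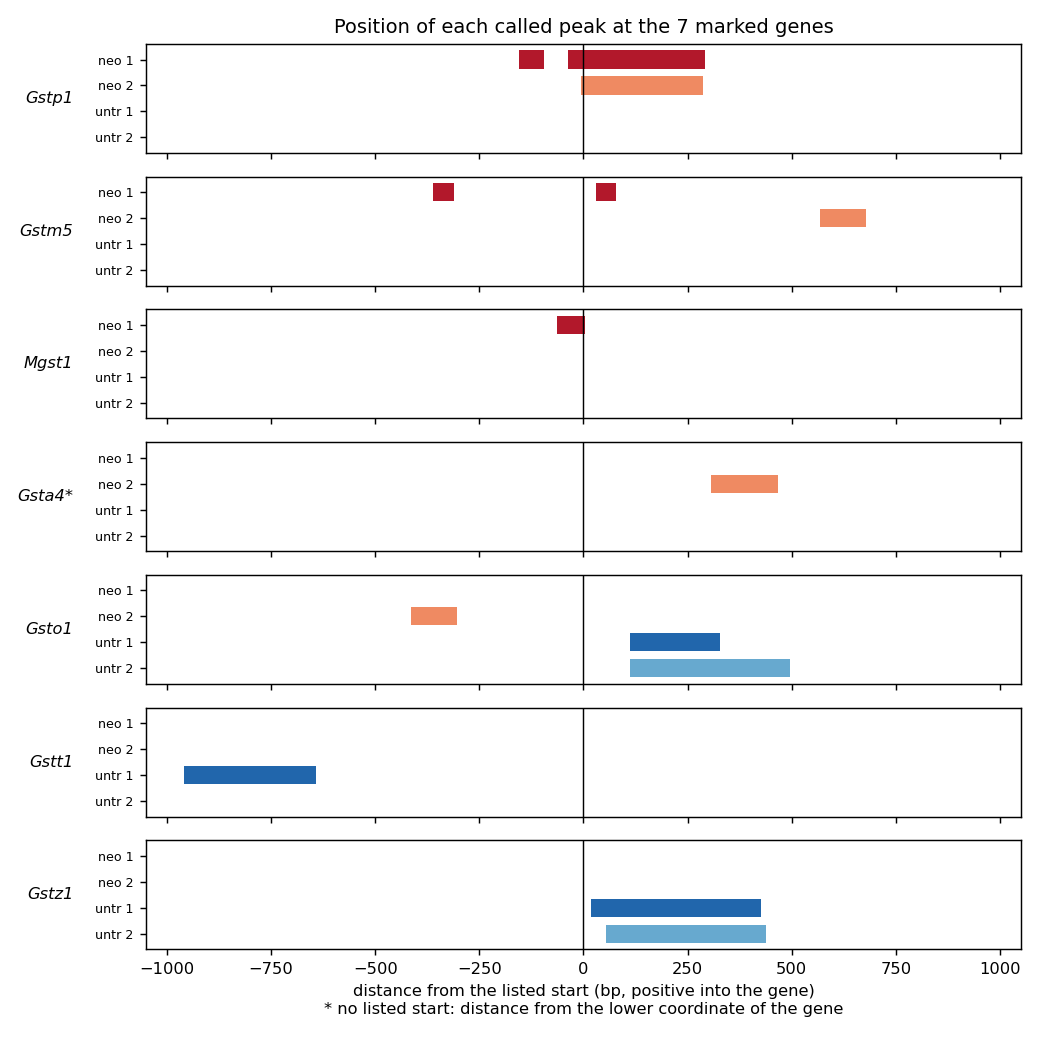
Extent of every called peak (bars) at the 7 genes with at least 1 peak, by distance in bp from the listed start (for Gsta4, from the lower coordinate of the gene), with neomycin replicates (neo) above untreated replicates (untr). Peaks of the replicates overlap at Gstp1 with neomycin and at Gsto1 and Gstz1 without it, while the Gstm5 peaks do not share a base.

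Among the 9 genes with a listed start, the ratio of observed to expected CpG at the outermost listed start ran from 0.38 at Gstt1 to 0.74 at Gstm5, with 0.68 at Gstp1. The Gstt1 gene extends upstream of its listed start, so its ratio may not be that of its outermost start. When all 21263 promoters were put into 4 equal bins of this ratio, 7 of the 9 fell in the third, from 0.57 to 0.83, and Gstp2 and Gstt1 in the second. The second listed starts of Mgst1 and Gstz1 had lower ratios, 0.073 and 0.14, in the first bin. That of Gstm1 had a ratio of 0.36, in the second bin. Of the 7 genes in the third bin, 5 had a peak near the start in at least 1 library and 0 in all 4, beside 27.1% of all promoters of that bin marked in all 4 libraries. Per library, 56.1% and 54.0% of the promoters of that bin were marked with neomycin and 72.4% and 55.2% without. At least 72.4% of them were thus marked in 1 library or more. In the same bin 2.50% of promoters had the pattern of Gstp1 and 6.40% that of Gstz1.

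Motifs were searched on both strands of these regions. The element core TGACNNNGC was found in Gstm5, as TGACCACGC 42 to 34 bases before the start, and in Mgst1, as TGACCGTGC 56 to 48 bases before it, and in 13.0% of all 21263 promoters. The match in Mgst1 lay under the peak of neomycin replicate 1 and the match in Gstm5 under no peak. The form with an AP-1 core, TGANTCAGC, which overlaps the first motif when N is C, was searched after the sequences had been seen. It was found in Gstp1 and in Gstp2, as TGAGTCAGC 74 to 66 and 89 to 81 bases before the start, and in 1.08% of all promoters. At Gstp1 it lay in the gap between the 2 peaks of neomycin replicate 1 and outside the peak of replicate 2. The TATA box, TATAAA, was in Gstm5, 40 bases after the start, in 1 of the listed starts of Gstm1, and in 12.6% of all promoters. A match describes letters and not a bound site.

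Of 21 further transferases and related membrane enzymes, 20 matched the annotation, and 2 and 4 had peaks with neomycin and 3 and 3 without. Over all genes the shares were 39.3% and 37.6% with neomycin and 51.0% and 39.7% without. Gstcd, whose span overlaps that of Ints12, was marked in all 4, with 130 and 152 bp with neomycin and 445 and 589 bp without. Mgst3 had 0 and 110 bp with neomycin and 543 and 0 bp without, and Gstm4 had 0 and 138 bp with neomycin and 0 and 421 bp without. Of the 20 genes, 14 had no peak in any library, beside 40.5% of all genes. The patterns of Gstp1 and of Gstz1 were found in 0 of the 20, beside the 1.56% and 4.50% of all genes given above.

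Among 23 genes that supply glutathione or export its conjugates, 11 and 9 had peaks with neomycin and 13 and 8 without. Per library, 39.3% and 37.6% of all genes had peaks with neomycin and 51.0% and 39.7% without. Ggct and Glrx, a glutaredoxin, were marked with neomycin alone, with 55 and 162 bp and with 48 and 115 bp in replicates 1 and 2. The Glrx peaks, and the Ggct peak of replicate 1, were at or near the shortest of their lists, 48 and 110 bp. Ggt1 and the exporters Abcc1 and Abcc4 were marked in the untreated libraries alone, Abcc1 with 462 and 368 bp. Over all genes, 1.56% were marked with neomycin alone, 4.50% in the untreated libraries alone and 19.8% in all 4. Gclc, the catalytic subunit of the rate-limiting enzyme of glutathione synthesis, was marked in all 4, with 106 and 438 bp with neomycin and 544 and 567 bp without, and so was the transporter subunit Slc3a2. Of 11 transcription factor genes that act on detoxification promoters, 5 and 6 had peaks with neomycin and 9 and 6 without. These counts stand beside the same per-library shares of all genes. Keap1, the inhibitor of Nrf2, and Mafg were marked in all 4. Nfe2l2, which encodes Nrf2, had 108 and 0 bp with neomycin and 397 and 0 bp without, and Mafk was marked in the untreated libraries alone, with 307 and 253 bp. Apart from these lists, the 5 genes closest to Gstp1 over the 4 libraries, by Euclidean distance of log2(1 + summed peak bp), were AW209491, Hcfc1r1, Epha4, Gorab and Slc16a13, at distances of 0.21, 0.33, 0.54, 0.60 and 0.63.

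The patterns of Gstp1, Gstm5 and Gstz1 rested on peaks below a stricter threshold in at least 1 library. When weaker peaks than −log10 q of 10 were left out, Gstz1 in untreated replicate 1 was the one gene of the 10 with a peak, and none of the 10 had a pattern of either kind. Over all genes, 1 of 21887 then had the pattern of Gstp1 and 7.36% that of Gstz1, so 0 of 10 with neomycin alone says nothing about these genes. Peaks at or above that value made up 5.26% and 2.45% of the neomycin lists, against 39.4% and 21.5% of the untreated lists.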

How the data were processed

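H3K4me3 ChIP-seq of 4 libraries, 2 per group, was analysed, without the inputs, which were not analysed here. The build mm10 and the names of CASAVA 1.4, Bowtie2, MACS2 and deepTools come from the submitters' processing notes. What each tool did, with which settings, and how inputs entered is not given in the sources used here. The authors deposited 1 peak list per library. Per the file headers, it gives each peak's position, length and pileup signal at the summit, and a fold enrichment ratio over background with −log10 p-value and q-value. These are the authors' values and were used to describe and rank peaks within a list.

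A peak marked a gene when it overlapped the gene and 1 kb either side, or 1 kb around a start, by at least 1 bp; the summed length counts whole peaks. Genes and starts came from RefSeq for GRCm38.p6, the assembly of mm10. Starts were listed for 17492 genes, and for others the gene end marked in more libraries was used, then the one with more peak bases, then the lower coordinate. The members and lists were chosen with earlier results of these data known. All 10 members were named, with genes touched by the same peaks, further transferases marked in both libraries of 1 group alone (there were none) and the 5 genes most like Gstp1; all other genes were named after their values were seen. No test was made, since the members were chosen from these libraries; relabelling the 4 libraries, in 3 ways, could give no p below 0.333. Alternatives were windows of 500 bp and 2.5 kb, −log10 q of at least 10, lists of equal length, an overlap of at least 100 bp, and leaving out each library. Counting was tested on simulated data. Python 3.11.15, pandas 2.3.3, numpy 2.4.6, Biopython 1.88 and matplotlib 3.10.9 were used.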

Additional observations from a re-analysis of the deposited data

How the results depend on the processing

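Gstp1 was marked with neomycin alone, and Gstz1 in the untreated libraries alone, also with windows of 500 bp and 2.5 kb, lists of equal length and an overlap of at least 100 bp. The windows and the overlap could not have ended either pattern. Nearest peaks of the other group lay 22.7 and 22.8 kb from Gstp1 and 34.9 and 35.1 kb from Gstz1. The main peaks, of 327 and 293 bp and of 410 and 386 bp, lay within 500 bp of the starts and exceeded 100 bp. Lists of equal length can remove peaks but cannot add any, and the removal ended the pattern of Gstm5. At Gstp1 and Gstz1 no peak that the pattern needs was removed. The windows and the overlap therefore say nothing about the stability of either pattern, and lists of equal length say little. With −log10 q of at least 10 alone, the counts of genes marked were 0, 0, 1 and 0 in neomycin replicate 1, neomycin replicate 2, untreated replicate 1 and untreated replicate 2, both over the gene and at the start. The summed length at Gstp1 was then 0 and 0 bp with neomycin, and the counts of genes marked with neomycin alone and in the untreated libraries alone were 0 and 0, beside 0.0046% and 7.36% of all genes. With lists of equal length, 1 gene was marked in untreated replicate 1, in both windows, and 1, Gstp1, with neomycin alone, beside 2.03% of all genes. With an overlap of at least 100 bp, 1 gene was marked in neomycin replicate 1, in both windows, and 1, Gstp1, with neomycin alone, beside 0.48% of all genes. With the window of 2.5 kb Gstp2 took on the pattern of Gstp1, from the same peaks, giving 3 genes beside 1.49% of all genes. When 1 library was left out, 2 to 3 genes were marked with neomycin alone, 1 to 2 in the untreated libraries alone and 0 to 1 in all that remained. Over all genes these shares ran from 2.36% to 6.39%, from 5.60% to 11.1% and from 20.6% to 26.5%. Dropping a library cannot end the pattern of a gene that already has it, so this says nothing about the stability of Gstp1, Gstm5 or Gstz1. Without neomycin replicate 1 Gsta4 joined the neomycin-only genes and Gsto1 was marked in all that remained, and without neomycin replicate 2 Mgst1 joined them and Gsto1 became untreated only. Without untreated replicate 2 Gstt1 became untreated only. In all, 66 of 87 recomputed values moved little and 21 moved. Some of the 66 could not have moved, such as the 0 bp at Gstp1 in the untreated libraries, so this total does not measure stability. The cause of the moves was not tested beyond what each alternative removes. No paired analysis was possible because the lists were described with no test and no label ties a replicate number to a culture or batch shared by both groups.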
